A study of Rattus norvegicus with 10 samples.

Results

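The 65 genes described here belong to families of membrane proteins that move drugs, bile salts, sterols, lipids and organic ions across membranes. They were chosen by gene symbol alone, as genes of the Slco and Slc22a families, the ABC families A, B, C, D and G, and Slc10a1, Slc47a1 and Slc15a1. They make up 65 of 14217 genes that had a probe set of their own, and 87 of 31042 probe sets, a probe set being the group of short probes that reads 1 transcript. The uptake genes numbered 31, with 13 Slco genes, 16 Slc22a genes, Slc10a1 and Slc15a1. The efflux genes numbered 34, with 8 exporters of the canalicular (bile-facing) membrane, 5 exporters of conjugates at the blood-facing membrane, 8 lipid transporters of the ABCA family, 7 genes of organelles and 6 others. Efflux is a label by family here, and not every gene under it moves compounds out of the cell. For the 18 genes with more than 1 probe set, the probe set with the highest mean over the 10 arrays stood for the gene. Abcb1b, the other rodent P-glycoprotein gene, had no probe set naming it alone and was not analysed here.

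Liver RNA came from male rats of the outbred Sprague-Dawley strain, 1 animal per Affymetrix 3' expression array. The control group and the group given effluent from bulk drug factories held 5 animals each. The series calls the exposure short-term, and its labels state no dose, route, duration or age. The comparison asks whether hepatic transporter expression differed between exposed and control animals.

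Hepatocytes take up bile salts and drugs from blood through carriers such as Slc10a1, the sodium-dependent bile salt carrier, and the Slco family of organic anion carriers. They export bile salts, phospholipid, sterols and conjugated drugs into bile through ABC pumps, with Abcb11 for bile salts, Abcb4 for phosphatidylcholine, Abcc2 for conjugates, and the pair Abcg5 and Abcg8 for sterols. Nuclear receptors that sense drugs and bile acids control many of these genes, which is why transporters are often read in studies of chemical exposure.

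Abcg5 and Abcg8 encode the partner subunits of 1 sterol exporter and gave the closest relation between animals of any pair examined. Their shared promoter stretch is shown for that reason, as the Abcg5 window of RefSeq on the GRCr8 build, chr6:15717686-15717985 on the plus strand, from 250 bases before to 50 bases after the start of the gene. The Abcg8 start lies 206 bases away on the opposite strand. Its own window, chr6:15717681-15717980 on the minus strand, shares 295 bases with this one, so 1 sequence serves for both. Capitals mark matches to 3 motifs searched on both strands, the TATA motif TATAAA, the GATA motif AGATAA and the CCAAT box.
Abcg5: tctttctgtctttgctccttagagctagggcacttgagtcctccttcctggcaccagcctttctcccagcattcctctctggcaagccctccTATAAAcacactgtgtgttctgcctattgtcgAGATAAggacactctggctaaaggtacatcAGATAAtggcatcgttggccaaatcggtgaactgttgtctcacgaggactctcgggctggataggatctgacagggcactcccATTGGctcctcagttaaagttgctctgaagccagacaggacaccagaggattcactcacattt
The stretch held 2 matches to AGATAA, a motif found in 11.6% of the 33469 RefSeq windows of this length. It held 1 match to TATAAA, found in 14.2% of windows, and 1 to CCAAT, found in 37.5%, with no overlap among the matches. The GC box GGGCGG (33.1% of windows), the E-box CACGTG (6.42%) and the nuclear receptor site AGGTCA (16.2%) were searched in the same way and had no match here. Windows were at hand for 55 of the 65 genes.

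Values are log2 expression, so that a difference of 1 is a 2-fold difference, and values of different probe sets are not compared as amounts of RNA. The median probe set had a mean of 5.47, and 39 of the 65 genes lay above it, 16 of 31 uptake genes and 23 of 34 efflux genes. The labelled tissue was matched by 6 of 7 hepatocyte markers measured, at means of 13.99 to 14.99, while 5 of 5 markers of skeletal muscle, fat and pancreas lay below the median probe set. Medians per array ran from 5.43 to 5.49. Control animal 5 stood apart in having the highest ratio of 3' to 5' control probes, a sign of RNA quality, at 0.73 on the log2 scale, against 0.49 to 0.63 in the other animals. It also had the lowest mean level of Kupffer cell, sinusoidal endothelium and lymphocyte markers, 0.88, 0.26 and 0.23 below the average animal. Only 1 of 6 lymphocyte markers lay above the median probe set. In whole liver, fewer cells of a type and less RNA per cell cannot be told apart.

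No transporter gene was called different between exposed and control livers. With limma, 0 of 65 genes passed an adjusted p of 0.05, where 0.0% of all 31042 probe sets passed, and the lowest adjusted p was 0.879. The unadjusted p was under 0.05 for 4 of 65 genes (6.15%), near the 5.46% of all probe sets. They were 1 gene higher in exposed animals (background 3.07%) and 3 genes lower (background 2.39%). The groups overlapped for each of the 65 genes, where 0.892% of all probe sets had groups that did not overlap. The 95% interval of the difference lay within a 2-fold change either way for 65 of 65 genes and within a 1.5-fold change for 59 (90.8%). Over all probe sets these shares were 99.5% and 97.3%. The counts of genes hold for the probe set that stood for each gene. Other Abca1 probe sets, 1382431_at and 1394490_at, differed by 0.27 ± 0.79 (SE) and 0.29 ± 0.59 (SE), too imprecise to exclude a 2-fold change. The 6 genes whose interval reached beyond a 1.5-fold change were Abcb9, Abcg8, Abcg5, Slc22a23, Slco3a1 and Abca8.

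Exposed animals had the higher mean for 33 of the 65 genes and the lower for 32, with a median difference of 0.0057, where the median of all probe sets was 0.0044. Uptake genes were higher for 19 of 31, with a median of 0.03. Efflux genes were higher for 14 of 34, with a median of -0.03. Among the 39 genes above the median level 15 were higher, while 18 of the other 26 were higher. Of all probe sets above the median level, 43.0% were higher. The median of the 16 uptake genes above that level was -0.0065, so the sign of the uptake median depended on including dim genes. It also depended on 1 animal: leaving out each animal in turn gave uptake medians from -0.0017 (without exposed animal 4, 15 of 31 higher) to 0.0487 (without control animal 5), and efflux medians from -0.048 (without control animal 1) to -0.0012 (without control animal 5). With median centring uptake genes were higher for 16 of 31 and efflux genes for 13 of 34.

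**Figure D1:**
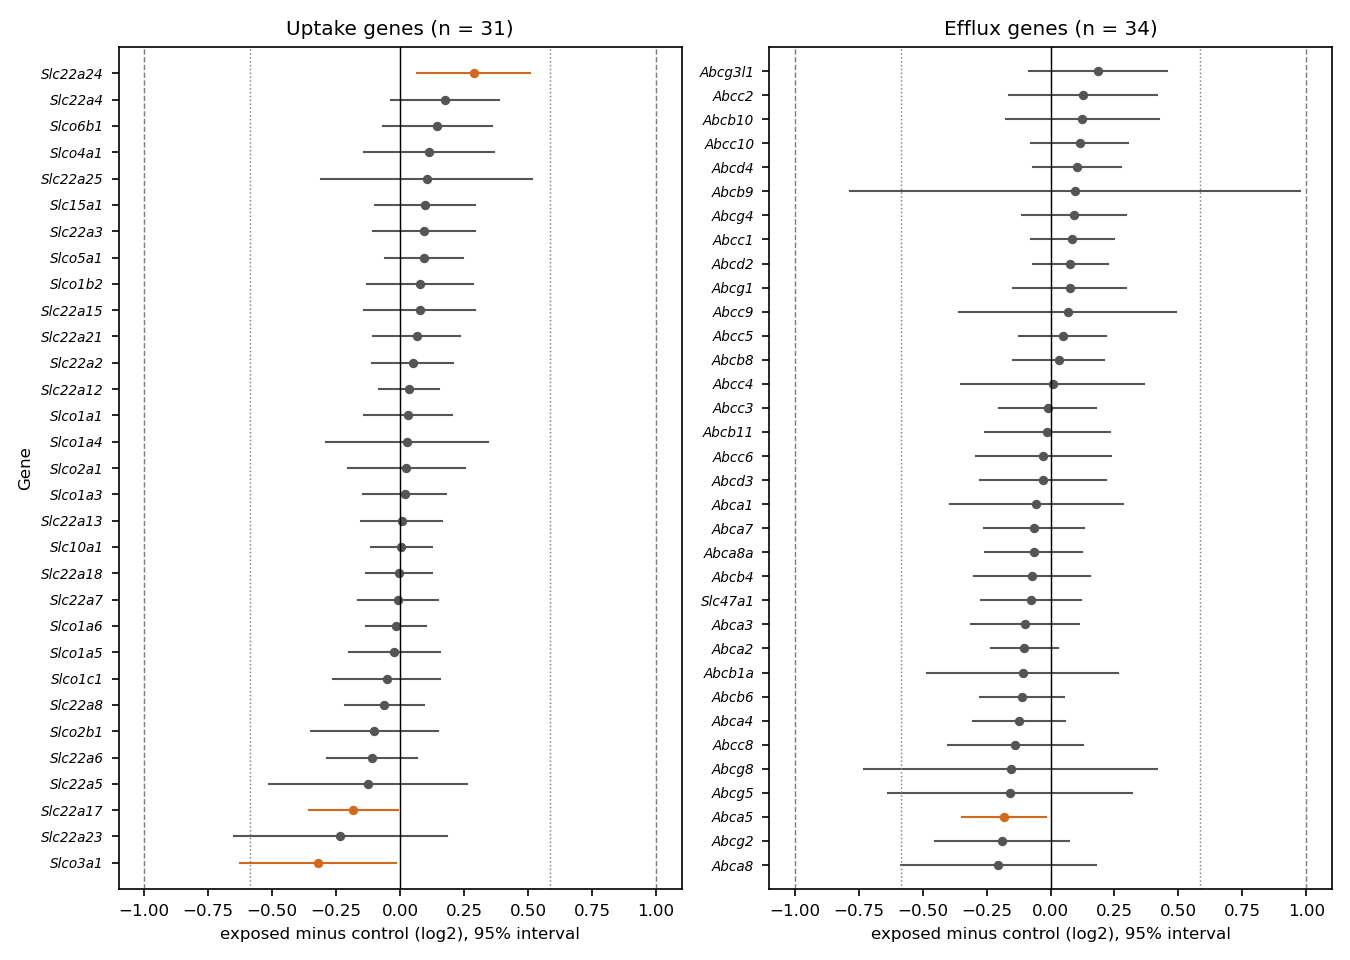
Difference between exposed and control livers (exposed minus control, log2) for 31 uptake and 34 efflux genes, each point with its 95% interval from limma. Each gene is read by the 1 probe set that stood for it. Dashed lines mark 2-fold and dotted lines 1.5-fold changes, and orange marks the 4 genes at an unadjusted p under 0.05, 0 of which passed after adjustment; each of the 65 intervals stays within the dashed lines.

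Among carriers of bile salts and organic anions, Slc10a1, Slco1a1, Slco1a4, Slco1b2, Slco2a1 and Slco2b1 differed between groups by 0.10 or less in size. Slc10a1, the main bile salt carrier, was at 13.50, 13.46, 13.60, 13.45 and 13.51 in control animals 1 to 5 and at 13.55, 13.51, 13.53, 13.56 and 13.42 in exposed animals. The groups overlapped throughout, and the whole span over 10 animals was 1.13-fold. The difference was 0.0057 ± 0.06 (SE), with a 95% interval from -0.11 to 0.13. Slco1b2, the liver-specific carrier of bilirubin, statins and other anions, was at 11.24, 11.61, 11.65, 11.74 and 11.76 in controls and 11.80, 11.72, 11.71, 11.51 and 11.66 in exposed animals. Control animal 1 was the lowest of the 10 and the remaining values overlapped. Its difference was 0.08 ± 0.10 (SE).

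Slco1a1, an anion carrier of male rat liver, was at 10.09, 10.05, 10.12, 10.00 and 10.15 in controls and at 10.30, 10.26, 10.05, 9.90 and 10.05 in exposed animals. Exposed animals 1 and 2 lay above the control range, exposed animal 4 below it and the other two within it. The difference was 0.03 ± 0.08 (SE). Slco1a4, a digoxin and anion carrier and a textbook target of the pregnane X receptor, was at 11.92, 11.59, 11.97, 11.95 and 12.43 in controls and at 12.33, 11.94, 11.87, 12.15 and 11.69 in exposed animals. The groups overlapped, with control animal 5 highest and control animal 2 lowest. The difference was 0.03 ± 0.15 (SE), with a 95% interval from -0.29 to 0.35. Slco2b1, an anion carrier of many tissues, and Slco2a1, the prostaglandin carrier, differed by -0.10 ± 0.11 (SE) and 0.03 ± 0.10 (SE).

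The Slc22a family holds the organic anion, cation and carnitine carriers. Slc22a7, the organic anion carrier Oat2, differed by -0.0085 ± 0.07 (SE), and Slc22a8, the anion carrier Oat3, by -0.06 ± 0.07 (SE). Slc22a5, the high-affinity carnitine carrier, was at 7.49, 7.22, 6.99, 7.29 and 8.13 in controls and at 7.26, 7.50, 6.97, 7.49 and 7.28 in exposed animals. Control animal 5 stood above the other 9, which overlapped. The difference was -0.13 ± 0.18 (SE), and it turned to 0.05 without control animal 5. Slc22a3, a cation carrier below the median probe set here, differed by 0.09 ± 0.09 (SE). Slc15a1, the peptide carrier known from the intestine, was likewise below the median probe set and differed by 0.10 ± 0.09 (SE).

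**Figure D2:**
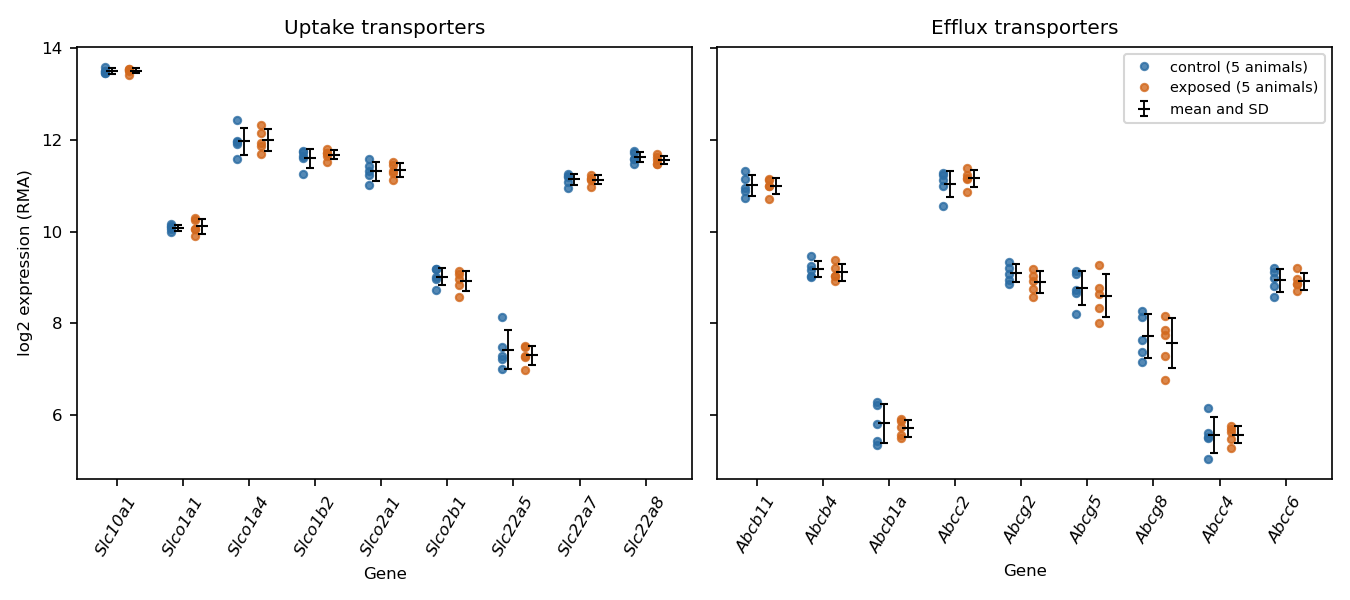
Log2 expression (RMA) of 9 uptake and 9 efflux transporters in each of 5 control (blue) and 5 exposed (orange) animals, with the mean and SD of each group in black. The blue and orange points overlap for each gene, Slc10a1 has the tightest points of the 18 and Abcg8 the widest.

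The 4 genes at an unadjusted p under 0.05 are given with their values, none of them past the adjusted threshold. Slc22a24, a member of the Slc22a family, was at 4.66, 4.76, 4.35, 4.60 and 4.88 in controls and at 4.94, 4.83, 4.89, 4.83 and 5.20 in exposed animals. Only control animal 5 lay above the 2 lowest exposed animals, and without it the groups did not overlap. The difference was 0.29 ± 0.10 (SE), with a limma unadjusted p of 0.0145 and an adjusted p of 0.879, and the unadjusted p stayed under 0.05 in 17 of 17 alternatives. Its level was below the median probe set.

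Abca5, a lipid transporter of lysosomes, was at 5.15, 5.20, 5.33, 5.26 and 5.15 in controls and at 5.07, 5.02, 5.12, 4.79 and 5.17 in exposed animals. Exposed animal 5 alone lay within the control range. The difference was -0.18 ± 0.08 (SE), with a limma unadjusted p of 0.0336, which rose to 0.0836 without exposed animal 4. Slc22a17, the lipocalin-2 receptor, was at 7.80, 7.57, 7.79, 7.69 and 7.72 in controls and at 7.58, 7.78, 7.48, 7.45 and 7.37 in exposed animals. Exposed animals 1 and 2 lay within the control range and the other three below it. The difference was -0.18 ± 0.08 (SE), with a limma unadjusted p of 0.0428 that stayed under 0.05 in 7 of 18 alternatives.

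Slco3a1, a prostaglandin and thyroid hormone carrier, was at 6.27, 5.91, 6.37, 6.11 and 5.58 in controls and at 5.79, 5.99, 5.52, 5.78 and 5.55 in exposed animals. Control animal 5 lay among the low exposed values. The difference was -0.32 ± 0.14 (SE), the largest of the 65 in size, with a limma unadjusted p of 0.0411. The other Slco3a1 probe set differed by -0.07 ± 0.10 (SE). Among genes with the higher mean in exposed animals, the next smallest p values belonged to Slc22a4, the ergothioneine carrier (0.18 ± 0.10, SE), Slco6b1 (0.15 ± 0.10, SE), Abcg3l1 (0.19 ± 0.12, SE) and Slco5a1 (0.09 ± 0.07, SE). Among genes with the lower mean they belonged to Abca2 (-0.10 ± 0.06, SE) and Abcg2, described with the canalicular exporters.

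Canalicular exporters had lower means in exposed animals for 7 of 8 genes, with a median difference of -0.09, and 0 of 8 reached an unadjusted p of 0.05. Abcb11, the bile salt export pump, was at 10.88, 10.74, 11.15, 10.96 and 11.32 in controls and at 10.99, 11.13, 11.15, 11.00 and 10.71 in exposed animals. Control animal 5 was highest and exposed animal 5 lowest, with the other animals intermixed. The difference was -0.01 ± 0.11 (SE), with a 95% interval from -0.26 to 0.23. Abcb4, the phospholipid exporter, differed by -0.07 ± 0.10 (SE). Abcb1a, a P-glycoprotein that expels many drugs, differed by -0.11 ± 0.17 (SE), and its 2 probe sets differed in sign. Slc47a1, the proton-coupled exporter of organic cations, differed by -0.08 ± 0.09 (SE).

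Abcc2, the exporter of glutathione and glucuronide conjugates, was the 1 canalicular gene with the higher mean in exposed animals. It was at 10.55, 11.28, 10.99, 11.24 and 11.12 in controls and at 11.14, 10.87, 11.16, 11.24 and 11.40 in exposed animals. Control animal 1 was lowest and exposed animal 5 highest. The difference was 0.13 ± 0.13 (SE), falling to 0.0066 without control animal 1. Abcg2, the exporter of sulfate conjugates, urate and many drugs, was at 9.34, 9.21, 8.95, 8.85 and 9.07 in controls and at 9.04, 9.19, 8.58, 8.92 and 8.74 in exposed animals. The lowest value belonged to exposed animal 3 and the highest to control animal 1. Its difference of -0.19 ± 0.12 (SE) was the largest of the canalicular genes in size, with a limma unadjusted p of 0.140 and a 95% interval from -0.45 to 0.07.

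The canalicular count moved with 1 animal. Control animal 5 had the highest canalicular values, with a median of 0.31 above each gene's average, and exposed animal 3 the lowest, 0.20 below. Without control animal 5, canalicular genes were lower in exposed animals for 5 of 8, with a median of -0.03. With the 3' to 5' ratio as a covariate they were lower for 6 of 8, with a median of -0.06. With median centring it was 7 of 8 and with quantile normalization 6 of 8. Kupffer cell markers, 5 of 7 measured, were higher in exposed animals for 5 of 5, with a median of 0.22 and 0 called. Their mean level relative to the average animal ran from -0.88 to 0.39 in controls and from -0.56 to 0.42 in exposed animals. Control animal 5 gave the -0.88 and was the lowest of all animals for each of the 5 markers. The smallest differences were 0.05 ± 0.21 (SE) for Cd163 and 0.20 ± 0.24 (SE) for Cd68. There control animal 5 was at 6.39 and 7.65, against control means of 7.01 and 8.50. The count of 5 of 5 was not recomputed without this animal and may depend on it. The part of Kupffer cell markers in the transporter values was not tested.

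At the blood-facing membrane, exporters of conjugates were higher in exposed animals for 3 of 5 and lower for 2 of 5, with a median of 0.0083. Abcc3, which returns glucuronides and bile salts to blood, differed by -0.01 ± 0.09 (SE). Abcc4, a cyclic nucleotide and bile salt exporter, was at 5.48, 5.60, 5.03, 5.52 and 6.15 in controls and at 5.48, 5.63, 5.28, 5.68 and 5.75 in exposed animals. Animal 5 was the highest and animal 3 the lowest in each group, and the group means were 5.56 ± 0.40 (SD, n = 5) and 5.56 ± 0.19 (SD, n = 5). Abcc6, the exporter linked to release of ATP from hepatocytes, differed by -0.03 ± 0.12 (SE).

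The ABCA family moves cholesterol, phospholipids and other lipids. All 8 of its genes had the lower mean in exposed animals, with a median of -0.10 and differences from -0.20 for Abca8 to -0.06 for Abca1, and 0 were called. Of all probe sets 52.0% were higher, and the count of the 8 genes carries no test. It was 8 of 8 with median centring and with quantile normalization, and 7 of 8 with the 3' to 5' ratio as a covariate. The count also depended on the probe set chosen, as Abca1 and Abca8 had probe sets of both signs. The mean of a gene's probe sets gave 7 of 8 lower, with Abca1 at 0.10. Leaving out control animal 3, which had the highest value of Abca1, Abca2, Abca4, Abca5, Abca7, Abca8 and Abca8a, gave 7 of 8 lower and a median of -0.06. Abca2, a lysosomal lipid transporter of the nervous system, was the tightest of the 8, at 7.45 ± 0.08 (SD, n = 5) in controls and 7.35 ± 0.06 (SD, n = 5) in exposed animals. Among organelle genes 5 of 7 were higher, with a median of 0.08. Abcd3, a peroxisomal fatty acid transporter, differed by -0.03 ± 0.11 (SE).

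Transporters varied between animals of a group by more than the typical probe set did. The SD within groups had a median of 0.165 over the 65 genes, where the median of all probe sets was 0.128, and 46 of the 65 genes lay above the latter. Uptake genes had a median SD of 0.151, with 19 of 31 above, and efflux genes 0.181, with 27 of 34 above. Canalicular genes had a median SD of 0.233, with 8 of 8 above. For the 39 transporters above the median level the median SD was 0.185, and for all probe sets above that level 0.129. The 2 sets were not matched, as 1 probe set with the highest mean stood for each transporter. Above the median level, the median level was 8.57 for transporters and 7.21 for all probe sets. These medians are descriptions and carry no test.

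At the low end, Slc10a1 had an SD of 0.06, at percentile 2.5 of all probe sets, and Slc22a18, an organic cation carrier from an imprinted locus, an SD of 0.07. At the high end were Abcb9, Abcg8, Abcg5, Abcc9, Slc22a23 and Slc22a25, with SDs from 0.365 to 0.80. Abcc9, the sulfonylurea receptor subunit of potassium channels in vascular muscle, ranged 2.20-fold, and control animal 3 was highest at 7.88 and control animal 1 lowest at 6.75. Slc22a25 ranged 2.34-fold, with exposed animal 3 highest at 5.46 and exposed animal 5 lowest at 4.24. Slc22a23 ranged 2.05-fold, with control animal 5 highest at 9.47 and exposed animal 2 lowest at 8.44.

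**Figure D3:**
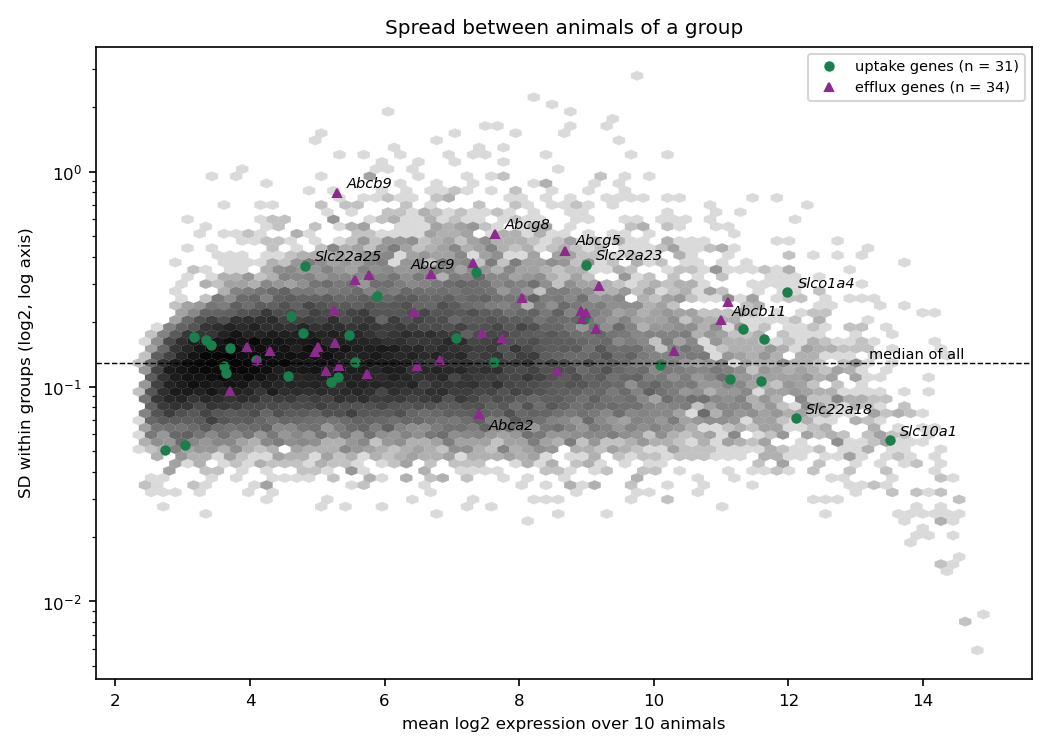
SD between animals of a group (log2, logarithmic axis) against mean log2 expression, with all 31042 probe sets as grey density and the 65 transporter genes as green circles (uptake) and purple triangles (efflux). The dashed line is the median SD of all probe sets, 0.128; 46 of 65 transporters lie above it, Abcb9 is highest at 0.80 and Slc10a1 lies at 0.06.

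Abcb9, a lysosomal peptide transporter related to the antigen peptide transporters, had the widest spread. It was at 6.32, 5.68, 4.87, 4.75 and 4.58 in controls and at 6.75, 5.19, 5.37, 4.87 and 4.50 in exposed animals. The values covered a 4.74-fold range, and animal 1 was highest in each group, well above the other four in the exposed group. The within-group SD of 0.80 was above that of 99.8% of all probe sets, and the exposure difference of 0.10 ± 0.41 (SE) was small beside it. The gene had 1 probe set, so no second reading of it was at hand.

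Abcg8 and Abcg5 followed each other from animal to animal. Abcg8 was at 8.28, 7.38, 7.14, 7.64 and 8.13 in controls and at 7.29, 7.74, 6.76, 7.86 and 8.16 in exposed animals, a 2.85-fold range. Abcg5 was at 9.14, 8.67, 8.21, 8.73 and 9.07 in controls and at 8.33, 8.64, 8.01, 8.77 and 9.27 in exposed animals, a 2.39-fold range. Within controls, animals 1 and 5 were high and animal 3 low for both genes, and within exposed animals, animal 5 was high and animal 3 low. The groups overlapped, with differences of -0.16 ± 0.26 (SE) for Abcg8 and -0.16 ± 0.22 (SE) for Abcg5.

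With group means removed, the correlation of Abcg5 with Abcg8 across the 10 animals was r = 0.964 and rho = 0.988. The exact permutation test within groups gave p = 6.94e-05 for each, the smallest that 14400 arrangements can give, and an adjusted p of 3.47e-04 over the 5 pairs of transporters tested. The correlation was 0.961 within controls and 0.970 within exposed animals. It was 0.966 without exposed animals 5 and 3, the farthest from the median, and 0.951 to 0.978 when each animal was left out. Among all 2080 pairs of the 65 genes it was the highest in size, where the middle 90% of pairs ran from -0.579 to 0.610.

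**Figure D4:**
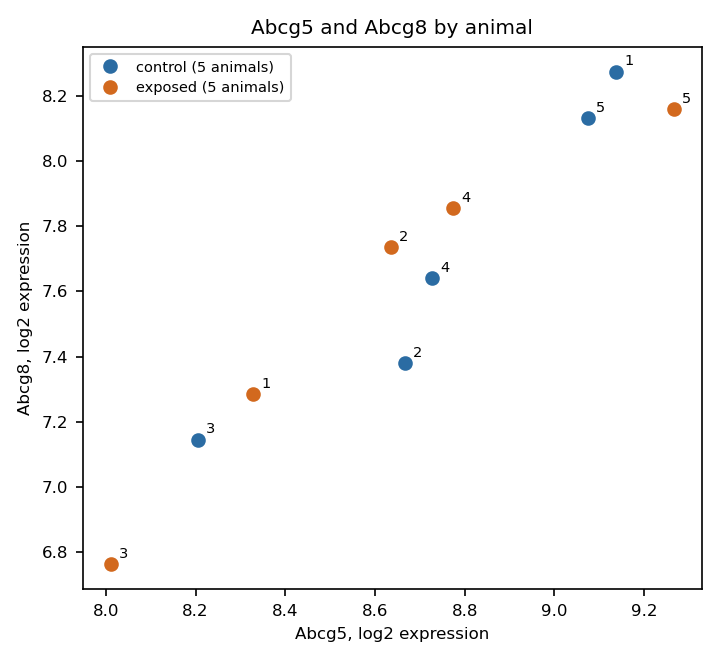
Log2 expression of Abcg8 against Abcg5, 1 point per animal, blue for 5 controls and orange for 5 exposed animals, each labelled with its animal number. The 10 points rise together from exposed animal 3 (8.01 and 6.76), with both colours along the same line. Exposed animal 5 (9.27 and 8.16) is highest for Abcg5 and control animal 1 (9.14 and 8.28) for Abcg8.

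The other 4 pairs named for a shared role did not pass the test. Abcb11 and Abcb4, which act together on bile salts and phospholipid, had r = 0.278 and rho = 0.139, with adjusted p = 0.943 and 0.847 by exact permutation, and r was 0.0675 without control animal 5 and exposed animal 5. The pooled value hid opposite signs, 0.870 within the 5 controls and -0.493 within the 5 exposed animals, a difference that was not tested. Abcb11 and Abcc2 had r = -0.245 and rho = -0.358, with the same adjusted p values of 0.943 and 0.847, and r was -0.222 without the same 2 animals. Its r was 0.0227 within controls and -0.789 within exposed animals, and -0.720 without control animal 1 (adjusted p = 0.0981 by exact permutation). Slc10a1 and Slco1b2 had r = -0.0257 and rho = 0.0788, with adjusted p = 0.949 and 0.847, and -0.0109 within controls and -0.0607 within exposed animals. Without exposed animal 5 and control animal 3, the farthest from the median, r was -0.351. Slco1a1 and Slc22a7 had r = 0.121 and rho = 0.115, with the same adjusted p values of 0.949 and 0.847. Without exposed animals 1 and 4, the farthest from the median, r was 0.583. Here too the groups had opposite signs, 0.881 within controls and -0.204 within exposed animals, and that difference was not tested. With 10 animals, weak relations could not be detected.

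Several probe sets for 1 gene gave a second reading of its spread. Of the 18 genes with more than 1 probe set, the sign of the exposure difference was shared by all probe sets for 11 and mixed for 7. Abca1 aside, 19 relations between a gene's probe sets were computed across animals with group means removed, and 17 had r above 0 and 8 an adjusted p under 0.05 by exact permutation. Slco1a4 had r = 0.983 and rho = 0.964 between its 2 probe sets, with exact permutation p of 7.64e-04 and 0.00153 and adjusted p of 0.00528 and 0.00968, and r = 0.977 without the 2 farthest animals. The spread of Abcc9 was also read alike by its probe sets, with r = 0.966 and rho = 0.988 for the closest, exact permutation p of 4.86e-04 and 3.47e-04, adjusted p of 0.00528 and 0.0066, and r = 0.942 without the 2 farthest animals. Slc22a23 had r = 0.814 and rho = 0.685, with exact permutation p of 0.00875 and 0.0371 and adjusted p of 0.0208 and 0.0881, and r = 0.639 without the 2 farthest animals.

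Abca1, which loads cholesterol onto apolipoprotein A-I, had 4 probe sets that did not move together, a pattern chosen for description after its values were seen. Probe set 1382431_at was at 8.88, 9.44, 7.24, 7.28 and 10.29 in controls and at 10.20, 10.10, 7.37, 6.64 and 10.17 in exposed animals, a 12.5-fold range. Probe set 1394490_at was at 7.14, 7.74, 6.14, 6.09 and 8.58 in controls and at 8.48, 8.17, 6.27, 5.86 and 8.39 in exposed animals, a 6.60-fold range. In both, animals 3 and 4 of each group were lowest, control animal 5 and exposed animals 1, 2 and 5 highest, and control animals 1 and 2 between them. The SDs within groups, 1.56 and 1.17, were above those of 99.97% and 99.9% of all probe sets.

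The probe set with the highest mean, 1383355_at, ran the other way. It was at 8.84, 9.18, 9.58, 9.45 and 9.04 in controls and at 8.97, 8.88, 9.50, 9.44 and 9.03 in exposed animals, a 1.68-fold range. The 4 animals lowest in the first pair, animals 3 and 4 of each group, were the 4 highest here. The remaining probe set, 1384381_at, ranged 1.96-fold, with control animal 4 highest at 7.15 and control animal 1 lowest at 6.18. As the animals fell at separate levels, no correlation is given. Each level held animals of both groups except the middle one, which held controls 1 and 2. Exposure differences of the 4 probe sets were -0.06 ± 0.16, 0.27 ± 0.79, -0.10 ± 0.16 and 0.29 ± 0.59 (SE) in the order 1383355_at, 1382431_at, 1384381_at and 1394490_at. Which part of the Abca1 transcript each probe set reads was not examined, so these values are of probe sets and not of the gene as a whole.

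**Figure D5:**
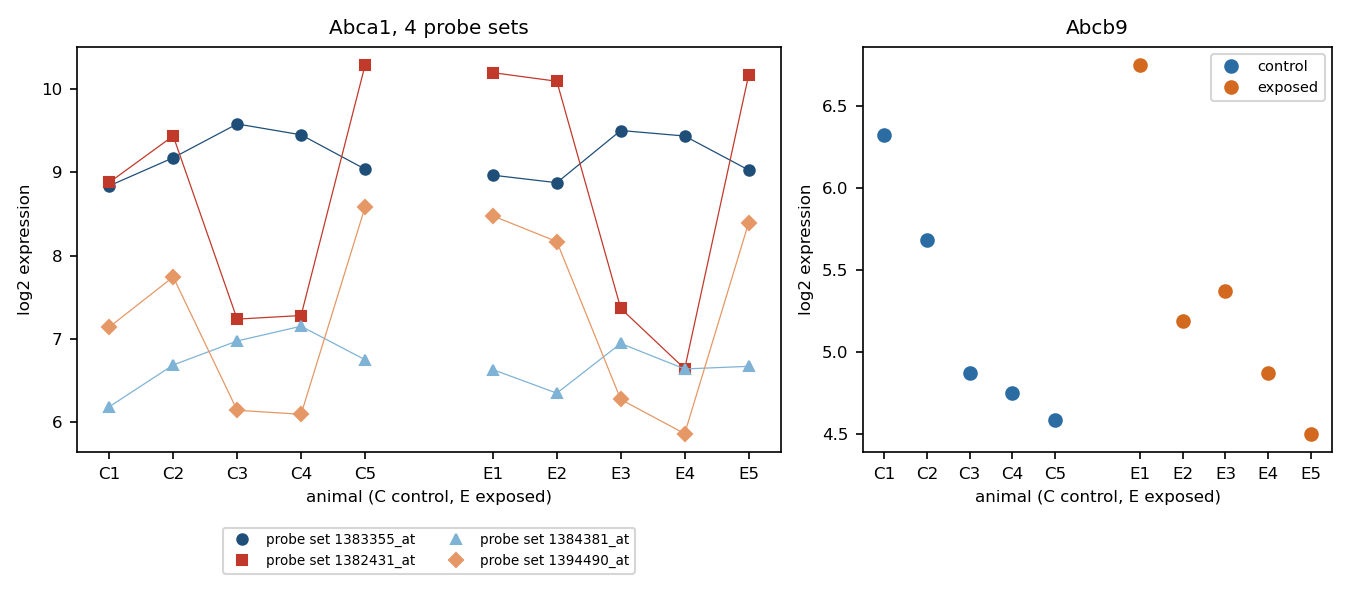
Left, log2 expression of the 4 Abca1 probe sets in each animal, C1 to C5 control and E1 to E5 exposed. The red squares (1382431_at, 6.64 to 10.29) and orange diamonds (1394490_at, 5.86 to 8.58) fall in animals 3 and 4 of both groups, where the dark blue circles (1383355_at) are highest. Right, log2 expression of Abcb9, from 4.50 to 6.75, with animal 1 highest in each group.

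Regulators and partners of hepatic transport that are not transporters of the list, 29 of 35 measured, had 0 genes called, 13 higher and 16 lower, with a median of -0.02. The drug-sensing receptors Nr1i2 and Nr1i3 differed by -0.03 ± 0.08 (SE) and -0.25 ± 0.24 (SE), and the bile acid receptor Nr1h4 by -0.12 ± 0.10 (SE). Of the 29, 1 gene had a limma unadjusted p under 0.05, where 5.46% of all probe sets did. It was Myo5b, a motor that carries exporters to the canalicular membrane. Its group means were 5.64 in controls and 5.24 in exposed animals, on either side of the median probe set at 5.47. The difference of -0.40 ± 0.11 (SE) did not pass (limma adjusted p 0.879). The groups overlapped, with control animal 1 at 5.40 and exposed animal 4 at 5.45. Cyp7a1, which sets the rate of bile acid synthesis, differed by -0.19 ± 0.73 (SE), with a within-group SD of 1.44.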

How the data were processed

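The authors deposited 1 log2 value per probe set and array. Per the submitters' processing notes these were made with RMA under R 2.8.1, which corrects background and aligns the arrays, so that array-wide shifts are lost. That the scale is log2 was taken from the range, 2.19 to 15.0. Scanner files were not used here. Of 31099 probe sets, 57 control sets were left out. By the platform annotation, 20826 probe sets named 1 gene, 436 several and 9780 none; 20758 were found by Entrez number in a GRCr8 RefSeq table.

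Exposed was compared with control per probe set by two-sided limma 3.58.1 fits under R 4.3.3. Benjamini-Hochberg adjustment ran over all 31042 probe sets, with 0.05 as threshold. The limma p-values set each group difference against the spread between animals. Correlations used values with group means removed and two-sided exact permutation within groups. The number of arrays limits precision. Both tests were tested on simulated data. Replicate numbers were not used as pairs in the main fits, as the labels tie no number to a shared day or batch. Same-numbered animals correlated between -0.0696 and 0.0938 over all probe sets, which cannot show sharing limited to a few genes. Abcb9 and Abcc4, for example, had the same animal numbers highest and lowest in both groups. Whether same-numbered animals shared a day or batch was not tested.

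The members, lists, tests and alternatives were chosen with earlier results of these data known. Genes named are main hepatic transporters, the 5 smallest p values in each direction and the 6 largest SDs, 37 in all. Alternatives were a filter at the median level, median centring, quantile normalization, a trended robust prior, array weights, the 3' to 5' ratio as covariate, the mean of a gene's probe sets, a replicate block and leaving out each animal.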

Additional observations from a re-analysis of the deposited data

Results flagged for a closer look

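Across the 65 transporters and both groups, 130 groups of 5 values were examined for an animal far from the other 4, and chance alone gives about 1 in 20, or 6.5. There were 3. Slc22a21, a carnitine carrier, was at 3.80 in control animal 2, where the other controls lay between 3.52 and 3.54. Slc22a6, the renal organic anion carrier Oat1, was at 5.78 in control animal 3 (others 5.54 to 5.59) and at 5.23 in exposed animal 4 (others 5.51 to 5.62).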

How the results depend on the processing

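No transporter passed the threshold under any alternative run, and 19 of the 37 named genes kept their sign in each; of 655 recomputed differences, 65 changed sign. With the 3' to 5' ratio as covariate, Abca1 was at 0.0043, Abcb11 at 0.118, Abcb9 at -0.204, Abcc6 at 0.071, Abcd3 at 0.024, Slc22a5 at 0.0056 and Slc22a7 at 0.0107. With quantile normalization, Abcb11 was at 0.0011, Abcc4 at -0.0087, Abcc6 at 0.0144, Abcd3 at 0.0082, Slc22a7 at 0.016 and the Slco1a1 and Slc22a7 correlation at -0.0274. With median centring, Abcc4 was at -0.0144, Slc10a1 at -0.017, the Slc10a1 and Slco1b2 correlation at 0.135, and the groups of 1 gene, Abca5, did not overlap. Array weights gave 0.0095 for Abcb11 and 0.0023 for Abcd3, and the mean of probe sets 0.101 for Abca1. Genes at an unadjusted p under 0.05 numbered 2 with the filter, which left out Slc22a24 and Abca5, and 2 with the replicate block, against 4. The median of uptake genes turned to -0.0065 with the filter. Centring moved all probe sets at an unadjusted p under 0.05 from 952 higher and 743 lower to 561 and 1195. It took the median difference of all probe sets from 0.0044 to -0.0184. Causes beyond the removal of genes by the filter and the shift by centring were not tested.

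Leaving out each animal gave 0 to 1 probe sets past the threshold (1 without exposed animal 1), 1 to 6 transporters at an unadjusted p under 0.05 (1 without control animal 4 or exposed animal 4, 2 without control animal 1 or exposed animal 3), and 0 to 1 with no overlap (Slc22a24 without control animal 5, Abca5 without exposed animal 5). Differences ranged from -0.15 to 0.0361 for Abca1, -0.0803 to 0.0653 for Abcb11, -0.225 to 0.00856 for Abcb1a, -0.258 to 0.365 for Abcb9, -0.0524 to 0.0484 for Abcc3, -0.123 to 0.157 for Abcc4, -0.121 to 0.0400 for Abcc6, -0.0673 to 0.217 for Abcc9, -0.0946 to 0.0597 for Abcd3 and -0.305 to 0.0438 for Abcg8. They ranged from -0.00716 to 0.029 for Slc10a1, -0.0435 to 0.263 for Slc22a25, -0.233 to 0.0502 for Slc22a5, -0.0548 to 0.0293 for Slc22a7, -0.0178 to 0.083 for Slco1a1, -0.0687 to 0.141 for Slco1a4, -0.0118 to 0.119 for Slco1b2 and -0.0482 to 0.0912 for Slco2a1. Differences that kept their sign but moved by over 1.5 times ranged from -0.217 to -0.12 for Abca5, -0.142 to -0.00447 for Abcb4, 0.00657 to 0.199 for Abcc2, -0.264 to -0.111 for Abcg2, 0.111 to 0.268 for Abcg3l1, -0.325 to -0.0111 for Abcg5, 0.0265 to 0.17 for Slc15a1, -0.387 to -0.123 for Slc22a23, 0.0263 to 0.138 for Slc22a3, 0.115 to 0.235 for Slc22a4, -0.0984 to -0.0268 for Slc22a8, -0.14 to -0.0104 for Slc47a1, -0.171 to -0.0157 for Slco2b1, 0.0551 to 0.127 for Slco5a1 and 0.0555 to 0.209 for Slco6b1. Correlations ranged from -0.116 to 0.468 for Abcb11 with Abcb4, -0.720 to -0.0492 for Abcb11 with Abcc2, -0.145 to 0.119 for Slc10a1 with Slco1b2 and -0.0815 to 0.568 for Slco1a1 with Slc22a7. Low signal limits genes below the median probe set, where a small change may not be read.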
